A study of Mus musculus with 4 samples.

Results

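The genes Rgs13, Nuggc, Mybl1, Gcsam, S1pr2, Bcl6, Neil1, Hmces and Basp1, by which germinal center B cells are known, were followed through 4 spleen libraries of lymphoma-bearing mice. They were chosen by name, from a list drawn up with earlier results of these same data in view, and are 9 of the 17252 genes in the table. RNA of single spleen cells had been counted by Drop-seq, in which droplets pair cells with beads whose primers mark the cell and, by a unique molecular identifier (UMI), each captured molecule. All 4 came from BALB/c mice that had received 10000 BCL1 cells, a transplantable B lymphoma of that strain, and spleens were taken on day 13. The isotype control mice received control antibody, the anti-CD20 mice an antibody to the B cell surface protein CD20 on day 4, the anti-CD27 mice an antibody to the costimulatory receptor CD27 on days 5 to 8, and the combination mice both, with days as the sample labels give them. The methods place the injections for the single-cell experiment on earlier days. Each treatment is 1 library, so no difference between treatments has a replicate and no p-value can be given. All intervals below are 95% intervals for counting error only.

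A germinal center is the site in a follicle where activated B cells divide, mutate their antibody genes and compete for help from T cells. Cells divide and mutate in its dark zone and are selected in its light zone. The 9 genes fall into 4 roles. Bcl6, a transcriptional repressor, and Mybl1, a MYB family activator, act on transcription. S1pr2, a sphingosine-1-phosphate receptor that holds B cells in the follicle center, Rgs13, which damps signals of G protein-coupled receptors, and Gcsam, an adaptor tied to B cell receptor signal and motility, act on position and signal. Neil1, a DNA glycosylase of base excision repair, Hmces, which binds abasic sites in single-stranded DNA, and Nuggc, a nuclear GTPase of germinal center B cells, act on DNA. Basp1 encodes a lipid-anchored signal protein best known from neurons, which also acts in the nucleus as a corepressor.

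In mm10 (GRCm38) coordinates of GENCODE M21, Rgs13 lies on chr1:144138654-144177372 and Mybl1 on chr1:9667415-9700209, both on the minus strand. S1pr2 on chr9:20962361-20976781 and Neil1 on chr9:57142800-57148305 share another chromosome and the minus strand. Bcl6 lies on chr16:23965052-23988852 of the minus strand and Gcsam on chr16:45610380-45622867 of the plus strand. Nuggc (chr14:65598546-65648531, plus), Hmces (chr6:87913935-87936629, plus) and Basp1 (chr15:25363277-25413764, minus) are each alone on their chromosome among the 9. An antisense gene, Gm26636, overlaps Hmces, and Gm37419 overlaps Bcl6 on the other strand. Whether the counting used strand is not given in the sources used here, so reads of those pairs may not be separable.

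RefSeq promoters (GRCm38.p6) were matched for 7 of the 9 genes, with 2 start sites for Bcl6. The 250 bases before the start are shown for the member whose UMIs lay most in 1 class, for the member with matches of 2 motifs, and for the 2 starts of Bcl6, whose protein binds a site of the kind marked. Capitals mark TTCNNNGAA, the paired half-site shared by BCL6 and STAT factors, in Bcl6, and in Neil1 first CAGGTG, an E-box, and then AACGG, a MYB site, both matched on the other strand and so printed as their complements. The matches do not overlap, and no capitals in Rgs13 means no match.
Rgs13, chr1:144177373-144177622, minus strand: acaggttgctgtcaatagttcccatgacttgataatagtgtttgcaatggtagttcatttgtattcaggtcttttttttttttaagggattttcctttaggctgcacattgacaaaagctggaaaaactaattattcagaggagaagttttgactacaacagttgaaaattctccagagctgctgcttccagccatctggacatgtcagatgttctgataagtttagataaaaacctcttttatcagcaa
Neil1, chr9:57148306-57148555, minus strand: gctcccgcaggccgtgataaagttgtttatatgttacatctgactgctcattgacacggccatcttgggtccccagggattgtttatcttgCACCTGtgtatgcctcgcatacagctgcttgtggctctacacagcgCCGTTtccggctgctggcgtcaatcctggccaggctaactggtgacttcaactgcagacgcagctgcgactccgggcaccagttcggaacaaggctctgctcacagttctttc
Bcl6, outer start, chr16:23988853-23989102, minus strand: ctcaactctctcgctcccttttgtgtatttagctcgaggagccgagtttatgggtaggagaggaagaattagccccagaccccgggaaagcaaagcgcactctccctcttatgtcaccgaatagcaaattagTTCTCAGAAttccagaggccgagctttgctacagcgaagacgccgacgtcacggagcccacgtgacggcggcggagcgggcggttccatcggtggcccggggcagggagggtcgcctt
Bcl6, inner start, chr16:23981284-23981533, minus strand: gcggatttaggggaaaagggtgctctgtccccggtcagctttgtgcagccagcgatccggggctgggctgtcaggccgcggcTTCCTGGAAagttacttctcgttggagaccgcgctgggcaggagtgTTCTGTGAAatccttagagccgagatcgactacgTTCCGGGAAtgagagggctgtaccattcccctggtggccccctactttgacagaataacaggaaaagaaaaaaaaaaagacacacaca
The inner window of Bcl6 lies within the gene, in no annotated exon. Searched on both strands of 32851 promoters of the same length, TTCNNNGAA was in 7.02% of them and, among the members, only in those of Bcl6, with 1 match at the outer and 3 at the inner start. CAGGTG was in 17.2% of all promoters and in those of Hmces, Neil1 and S1pr2. AACGG was in 14.5% and in those of Gcsam and Neil1. The octamer ATGCAAAT (1.60%) and the ETS-type GAGGAAGT (2.44%) were in none of the 7. No motif was common to the members, and a match describes letters, not binding.

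Barcodes with 300 to 3000 detected genes were kept, 1770 of 3198, with 340 to 501 cells and 440710 to 939565 UMIs a library, least in the isotype control. Clustering without the 9 genes and the other genes listed as results gave 11 clusters. One had 5 of the 9 measured germinal center markers used for naming among its leading genes, Eaf2, Klhl6, Pafah1b3 and Lipc among them and none of them a member, and was named germinal center B-like. Its 178 cells were 49 of 340 in the isotype control (14.4%, 10.9 to 18.6), 123 of 501 with anti-CD20 (24.6%, 20.8 to 28.6), 5 of 497 with anti-CD27 (1.01%, 0.327 to 2.33) and 1 of 432 in the combination (0.231%, 0.00586 to 1.28). These last 6 cells together held 7961 UMIs and had none of any member or of any naming marker, which allows a summed level of up to 377 CPM (UMIs per 1000000 UMIs of the cells summed), so their class name rests on neighbours in the clustering alone. Of the naming markers not among the leading genes, Efnb1 had 27 of its 39 UMIs in the class, Ell3 6 of 14 and Fas 38 of 149. Asb2 went the other way, with 1 of 118 UMIs in the class, and was a leading gene of another cluster. Markers of B cells summed to 23182 CPM in the class and to 32465 CPM in the other B-like cells, and T cell markers to 144 CPM. The haemoglobin and other erythroid markers summed to 1999.8 CPM (7 of 11 seen) in the class in the isotype control and 11178 CPM (9 of 11) with anti-CD20, and to 2805 and 8806 CPM in B-like cells, and their part in the values below was not tested. The tumor is itself a B cell line and no gene list here tells it from host B cells, so both may be in either class. No barcode was shared between libraries among the kept cells.

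Rgs13, Nuggc, Mybl1 and Gcsam lay mostly in the germinal center B-like class. Of their UMIs in the kept cells, 96.3% (259 of 269) of Rgs13, 93.1% (176 of 189) of Nuggc, 87.1% (244 of 280) of Mybl1 and 82.4% (103 of 125) of Gcsam lay there, while the class held 12.2% of all UMIs. A gene was called restricted when at least 80% of its UMIs lay in the class. Of 9084 genes with at least 30 UMIs, 0.0991% were restricted, 9 genes in all. Among the others were Rassf6, H1fx, Endou and Arhgap8. As the members were picked with these data known, the count describes them and supports nothing further. Just below the limit were S1pr2 at 76.4% (55 of 72), Hmces at 76.3% (225 of 295) and Neil1 at 75.7% (81 of 107). Basp1 at 58.9% (145 of 246) and Bcl6 at 58.8% (80 of 136) were the least concentrated.

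**Figure D1:**
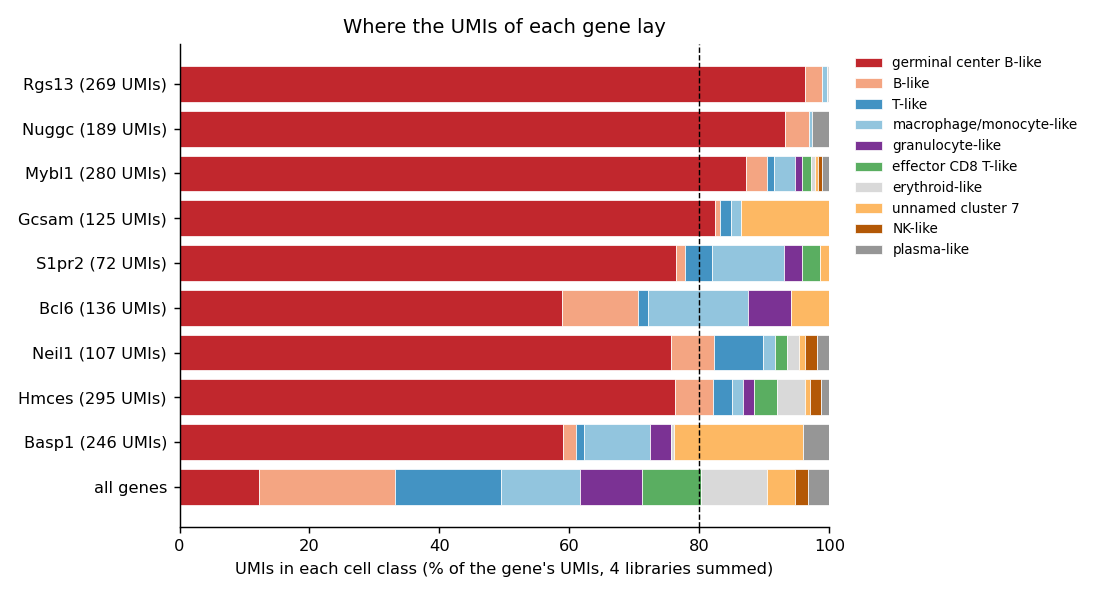
Share of each gene's UMIs, in percent, that lay in each cell class, with the 4 libraries summed, the total UMIs in brackets and all genes in the lowest bar. The dashed line is at 80%, which Rgs13, Nuggc, Mybl1 and Gcsam pass; the unnamed cluster 7 takes a visible part of Basp1 and Gcsam.

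The 4 summed libraries mix spleens with and without the class. Over the isotype control and anti-CD20 libraries alone, where the class had 49 and 123 cells, the shares were closer together. They ran from 79.7% for Basp1 (73.1 to 85.3) to 96.6% for Rgs13 (93.7 to 98.5), with Bcl6 at 87.9% (79.4 to 93.8) and S1pr2 at 91.7% (81.6 to 97.2). In the anti-CD20 library by itself all 9 were above 80%, from 80.6% for Neil1 to 96.4% for Rgs13. In the isotype control Hmces (78.6%), Basp1 (71.9%) and Bcl6 (70.8%) were below it, each from 56 UMIs or fewer. Of the UMIs of Bcl6 outside the class, 21 were in the anti-CD27 and 24 in the combination library, and of those of Basp1 21 and 43. Both genes thus had most of their remaining UMIs in the libraries in which the class had 5 cells or 1.

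Within each library the members were set against the other B-like cells. In the isotype control (49 and 176 cells) the level of Rgs13 was 520 CPM (379 to 696) in the germinal center B-like class and 5.17 CPM (0.131 to 28.8) in B-like cells. With anti-CD20 (123 and 105 cells) it was 724 CPM (631 to 828) and 22.1 CPM (7.17 to 51.6). Nuggc was at 578 and 15.5 CPM in the isotype control and at 427 and 17.7 CPM with anti-CD20. Rgs13 and Nuggc were thus present in the one class and near the level of a few counts in the other. Mybl1 was at 520 and 20.7 CPM in the isotype control and at 674 and 17.7 CPM with anti-CD20. Hmces, at 509 and 41.3 CPM and then 613 and 30.9 CPM, had the highest B-like level of the 9 in both libraries.

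The remaining members were lower in the class and again higher there than in B-like cells. Basp1 was at 266 CPM in the class and 5.17 CPM in B-like cells of the isotype control, and at 413 and 8.84 CPM with anti-CD20. Neil1 was at 312 and 10.3 CPM, and at 183 and 17.7 CPM. Bcl6, the repressor that germinal center B cells depend on, was at 197 CPM and 25.8 CPM in the isotype control, and at 213 and 4.42 CPM with anti-CD20. Gcsam was at 208 CPM in the class of the isotype control and had no UMI in its B-like cells, which allows up to 15.5 CPM, and was at 288 and 4.42 CPM with anti-CD20. S1pr2 was the lowest member in the class of both libraries, at 92.5 CPM (39.9 to 182) and 159 CPM (117 to 212). It had no UMI in B-like cells of the isotype control and 1 in those of anti-CD20.

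**Figure D2:**
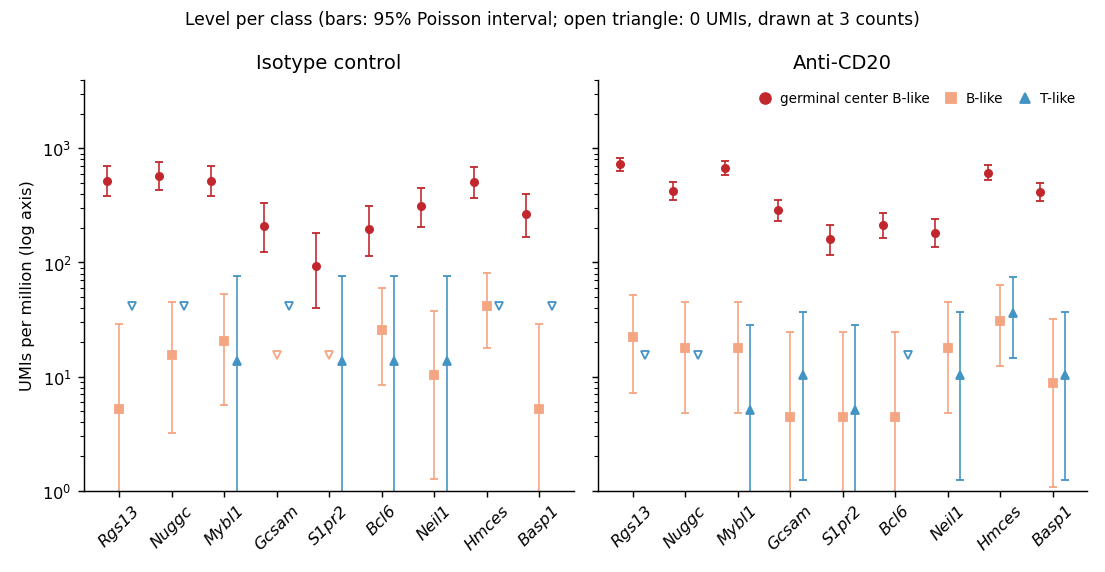
Level of each gene in germinal center B-like, B-like and T-like cells of the isotype control (left) and anti-CD20 (right) libraries, in CPM on a log axis. Bars are 95% Poisson intervals, cut off at the lower edge where they reach below 1, and open triangles mark 0 UMIs, drawn at the level of 3 counts; the germinal center B-like points lie above every B-like point of the same gene, with S1pr2 lowest.

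Counting a gene as higher when its CPM differed by at least 2-fold with an interval that excluded no change, among genes with at least 30 UMIs in the pair, all 9 members were higher in the class with anti-CD20, against 15.6% of 3335 genes. Their log2 ratios ran from 3.37 for Neil1 (1.93 to 5.30) to 6.03 for Gcsam (3.51 to 11.3), with a median of 5.17 beside 0.20 for all genes tested. In the isotype control 4 members reached 30 UMIs (Rgs13, Nuggc, Mybl1 and Hmces) and all 4 were higher, against 11.3% of 1958 genes. The other 5 had between 8 and 29 UMIs in the pair. Their intervals also excluded no change, the nearest being that of Bcl6 at a log2 ratio of 2.93 (1.43 to 4.72).

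In order of level within the class, in the anti-CD20 library Rgs13, Mybl1 and Hmces stood at 613 to 724 CPM, and their intervals overlapped. Nuggc and Basp1, at 427 and 413 CPM, were below them and overlapped each other. Gcsam followed at 288 CPM (230 to 356), an interval that met those of its neighbours on both sides, and Bcl6, Neil1 and S1pr2, at 213, 183 and 159 CPM, overlapped among themselves. These are levels per UMI of 3' tags with no division by length, as each molecule is counted once.

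The share of cells with a UMI gave the same picture at equal depth. With each cell thinned at random to 400 UMIs, which left out 3 of the 178 germinal center B-like cells, 23.4% of them had a UMI of Mybl1 (17.4 to 30.4), 17.1% of Rgs13 (11.9 to 23.6) and 16% each of Hmces and Basp1 (10.9 to 22.3). S1pr2 was found in 4.57% (1.99 to 8.81). These shares come from a single draw. Averaged over every possible draw they were 21.4% for Mybl1, 21.0% for Rgs13, 17.2% for Hmces, 13.0% for Basp1 and 5.34% for S1pr2. Of 470 B-like cells, thinned in the same way, between 0 and 1.28% had a UMI of a given member, the highest being Bcl6. T-like cells served as background for the members known from B cells, but not for Bcl6, which some T cells use, nor for Hmces and Mybl1, which had UMIs in all 10 classes. At 400 UMIs, 0 of 428 had a UMI of Rgs13, Nuggc, S1pr2 or Bcl6, which allows a share of up to 0.701%, and at most 0.701% had one of another member, Hmces. Of 117 erythroid-like cells, 0 had a UMI of any member in that single draw, which allows up to 2.56%. Averaged over every possible draw, Hmces was in 1.14% of erythroid-like cells, beside 1.10% of B-like cells. Unthinned it was in 11 of 118 erythroid-like cells. For each of the 9 genes the interval of the germinal center B-like class lay above that of B-like cells. Without thinning the shares in the class were 23.0% for S1pr2 to 55.1% for Mybl1, at a median depth of 1800 UMIs, against 1052 for B-like and 988 for T-like cells.

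Summed over the 4 libraries, Basp1 was as abundant in a cluster that was not of B cells. This cluster of 64 cells was led by Cst3, Naaa, Xcr1 and Dnase1l3 and held 49 UMIs of Basp1 in 26 cells, 360 CPM (267 to 476), beside 145 UMIs and 372 CPM in the germinal center B-like class. The log2 ratio of the class over this cluster was 0.05 (-0.43 to 0.54), an interval for counting error that includes no change. Class and cluster came mostly from different libraries, so this ratio also holds any difference between treatments. In the class Basp1 was at 266 CPM in the isotype control and 413 CPM with anti-CD20. The cluster had only 2 dendritic cell markers among its leading genes and was left unnamed. Of markers of that cell type, Naaa stood at 1155 CPM, Xcr1 at 559 CPM, Itgax at 221 CPM and Flt3 at 191 CPM in it. Bst2 (154 CPM), Zbtb46 (125), Clec9a (118), Cd209a (58.8) and Ccr9 (29.4) were lower, and Siglech had no UMI. Basp1 was seen there in each of the 4 libraries, at 148 CPM in the isotype control, 440 CPM with anti-CD20, 267 CPM with anti-CD27 and 482 CPM in the combination, from 4, 11, 8 and 26 UMIs in 12 to 23 cells each.

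Gcsam had the next most UMIs of the 9 in this cluster, 17 in 12 of its 64 cells, 125 CPM (72.8 to 200.2). Over the 4 summed libraries, which mix class with treatment, it was 2.11-fold higher in the germinal center B-like class (1.26 to 3.77). These 17 made up most of the 22 UMIs of Gcsam outside the class. In the anti-CD27 and combination libraries every UMI of Gcsam, 2 and 7, was in this cluster. Rgs13 and Nuggc had no UMI in its 64 cells, Mybl1, S1pr2 and Neil1 had 1 each, and Hmces had 2. Bcl6 had 8 in 7 cells, 58.8 CPM (25.4 to 116).

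Bcl6 had the smallest share of its UMIs in the class, just below that of Basp1. Beside its 80 UMIs in the class it had 21 in macrophage/monocyte-like, 16 in B-like, 9 in granulocyte-like, 8 in the unnamed cluster and 2 in T-like cells, and none in the other 4 classes. Over the 4 summed libraries the class was 3.83-fold higher than macrophage/monocyte-like cells (2.35 to 6.53). It was 3.49-fold higher than the unnamed cluster (1.69 to 8.36) and 8.65-fold higher than B-like cells (5.02 to 15.9). These folds mix class with treatment, as 88 of 165 macrophage/monocyte-like cells were from the combination, where the class had 1 cell. Within the anti-CD20 library Bcl6 was at 213 CPM in the class and 61.8 CPM in macrophage/monocyte-like cells (3 UMIs). The isotype control had 12 such cells, with no UMI. T follicular helper cells also use Bcl6, yet 2 of 435 T-like cells had a UMI of it. Of the 24 UMIs of Bcl6 in the combination, 15 lay in its 88 macrophage/monocyte-like cells.

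Basp1, too, was found in macrophage/monocyte-like cells, with 25 UMIs and a level 5.83-fold below the class (3.80 to 9.31). The folds given here are again over the 4 summed libraries and mix class with treatment. Within the anti-CD20 library Basp1 was at 413 CPM in the class and 144 CPM in those cells (7 UMIs). In plasma-like cells it had 10 UMIs in 7 of 33 cells, 95.4 CPM, 3.90-fold below the class (2.06 to 8.30). S1pr2 had 8 UMIs in macrophage/monocyte-like cells, 6.92-fold below the class (3.27 to 16.8). Within the anti-CD20 library S1pr2 was at 159 CPM in the class and 41.2 CPM in those cells (2 UMIs). Nuggc had 5 UMIs in plasma-like cells, 9.46-fold below the class (3.98 to 29.5). Outside the class, Hmces and Neil1 had low counts in nearly every other class, at most 17 and 8 UMIs in any. By level Hmces was highest there in NK-like cells, at 75.5 CPM from 5 UMIs. It was at 25.2 CPM in B-like cells, which held the 17 UMIs. Of 9 UMIs of Mybl1 in macrophage/monocyte-like cells, all were in 2 cells of the anti-CD20 library.

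Over whole libraries every member was lower in each library with anti-CD27, where the class had 5 cells or 1, than in each without it. Rgs13 was at 104 CPM (46 UMIs) in the isotype control, 236 CPM (222) with anti-CD20 and 1.10 CPM (1) with anti-CD27, and had no UMI in the combination. Nuggc was at 123, 140 and 3.30 CPM in the same order and had no UMI in the combination. Mybl1 was at 118, 232, 5.50 and 5.45 CPM. All 3 were thus at 0 to 5 UMIs in each library with anti-CD27 and at 46 or more in each without it. Hmces was at 127, 218, 16.5 and 20.7 CPM, and Neil1 at 72.6, 71.3, 6.60 and 2.18 CPM. These repair genes had 2 to 19 UMIs left in each library with anti-CD27. Gcsam was at 49.9, 100.05, 2.20 and 7.63 CPM, and S1pr2 at 20.4, 54.3, 5.50 and 7.63 CPM. Both had fewer than 10 UMIs in each library with anti-CD27. Bcl6 was at 54.5, 71.3, 23.1 and 26.2 CPM, and Basp1 at 72.6, 160, 23.1 and 46.9 CPM. These last 2, the members with the largest shares of UMIs outside the class, had the smallest gaps between the libraries with and without anti-CD27.

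**Figure D3:**
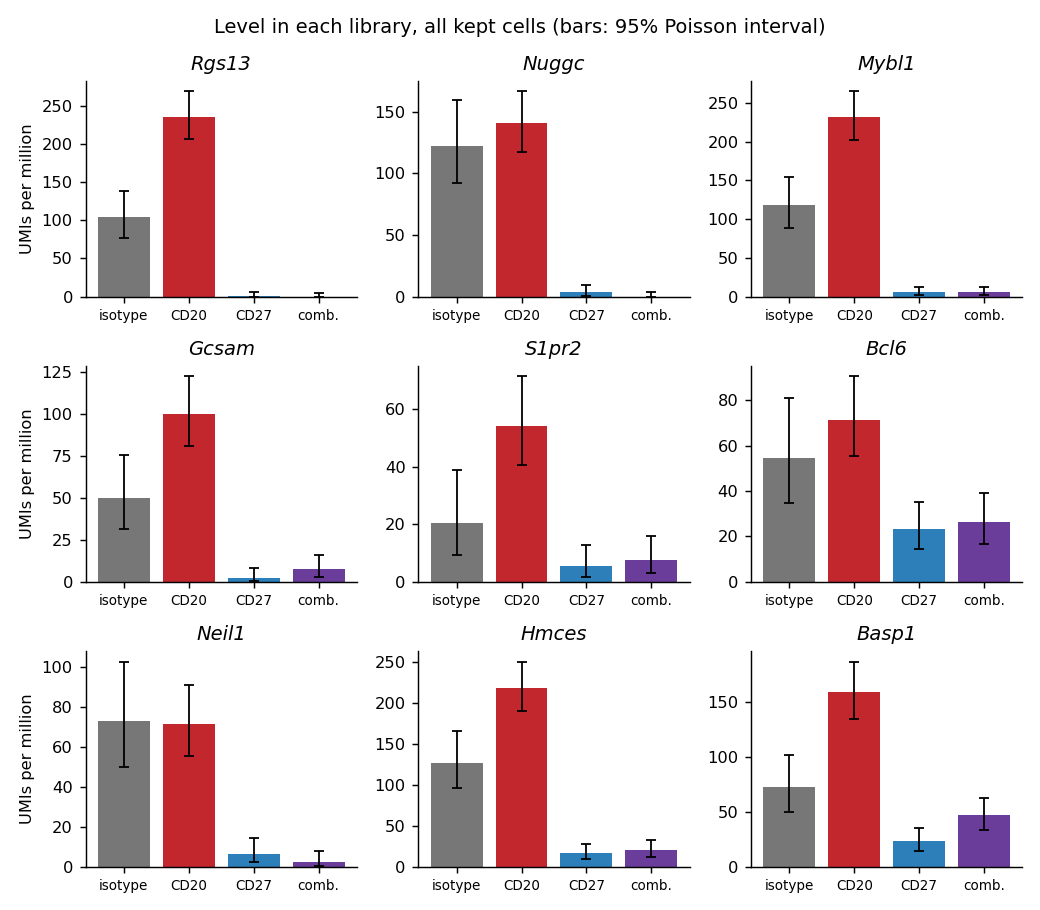
Level of each gene over all kept cells of each library (isotype, CD20, CD27 and comb. for the combination), in CPM with 95% Poisson intervals, 1 library per bar. The anti-CD27 and combination bars lie below the other 2 for every gene, least so for Bcl6 and Basp1.

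Anti-CD27 against the isotype control gave 7 lower members of the 7 with at least 30 UMIs in the pair, against 6.2% of 6612 genes. Rgs13 was 94.9-fold lower by the ratio of 1 to 46 UMIs (log2 ratio -6.57, -11.9 to -4.02), Nuggc 37.1-fold (-5.21, -7.54 to -3.59) and Mybl1 21.4-fold (-4.42, -6.10 to -3.11). The smallest differences were those of Bcl6 (-1.24, -2.15 to -0.33) and Basp1 (-1.65, -2.52 to -0.81). Gcsam (24 UMIs) and S1pr2 (14) did not reach 30 UMIs in the pair, at log2 ratios of -4.50 (-7.64 to -2.48) and -1.89 (-3.82 to -0.16).

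The combination against anti-CD20 gave 9 lower members of 9, against 8.33% of 7572 genes. Rgs13 and Nuggc had no UMI among the 917486 of the combination library. Set at the floor of 3 counts, 3.27 CPM, they were 72.3-fold and 43.0-fold lower than with anti-CD20. The intervals of their log2 ratios ended at -5.86 and -5.11. Mybl1 was 42.6-fold lower (log2 ratio -5.41, -7.05 to -4.17), Neil1 32.7-fold (-5.03, -8.11 to -3.12) and Gcsam 13.1-fold (-3.71, -5.07 to -2.61). Basp1 was 3.41-fold lower (-1.77, -2.29 to -1.27) and Bcl6 2.73-fold (-1.45, -2.18 to -0.75). In a library sum, fewer cells of a type and less RNA per cell cannot be told apart. Here the class had 1 cell in the combination and 5 with anti-CD27, so its level within those libraries could not be measured.

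Anti-CD20 against the isotype control gave 4 higher members of 9, against 2.58% of 6636 genes, and both libraries held the class. S1pr2 was 2.66-fold higher (log2 ratio 1.41, 0.37 to 2.62), Rgs13 2.26-fold (1.18, 0.72 to 1.67), Basp1 2.20-fold (1.14, 0.58 to 1.74) and Gcsam 2.0-fold (log2 interval 0.32 to 1.74). Mybl1, at 1.97-fold (0.98, 0.53 to 1.44), was just outside the limit and Gcsam just inside it. The call of Gcsam was lost without the 16 barcodes that Scrublet, a doublet caller, marked (0.99). Hmces was at 0.78 (0.35 to 1.23), and Bcl6 (0.39, -0.30 to 1.13), Nuggc (0.20, -0.27 to 0.68) and Neil1 (-0.03, -0.65 to 0.63) had intervals that included no change. The class held 19.6% of all UMIs in the isotype control and 31.4% with anti-CD20. Each of the 3 comparisons shares a library with another, so they are not independent.

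Within the class, per UMI, the log2 ratio of anti-CD20 over the isotype control was lower for every member than over all cells. For Neil1 and Nuggc it was farther from 0, on the negative side. A lower ratio is fixed by arithmetic for a gene almost wholly in the class, which rose from 19.6% to 31.4% of all UMIs. That shift is therefore no result about the members. None of the 9 passed the 2-fold limit, against 3.3% of 2637 genes higher and 3.22% lower. The median log2 ratio of the members was 0.37, beside -0.01 for all genes tested. Rgs13 was at 0.48 (0.01 to 0.98) and Neil1, the glycosylase, at -0.77 (-1.46 to -0.05), the 2 members whose interval excluded no change. Basp1 was at 0.64 (-0.02 to 1.35), Nuggc at -0.44 (-0.92 to 0.06) and Mybl1 at 0.37 (-0.10 to 0.87). The intervals of S1pr2 (-0.31 to 2.08) and Gcsam (-0.28 to 1.29) include a 2-fold difference and rest on 8 and 18 UMIs in the isotype control.

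**Figure D4:**
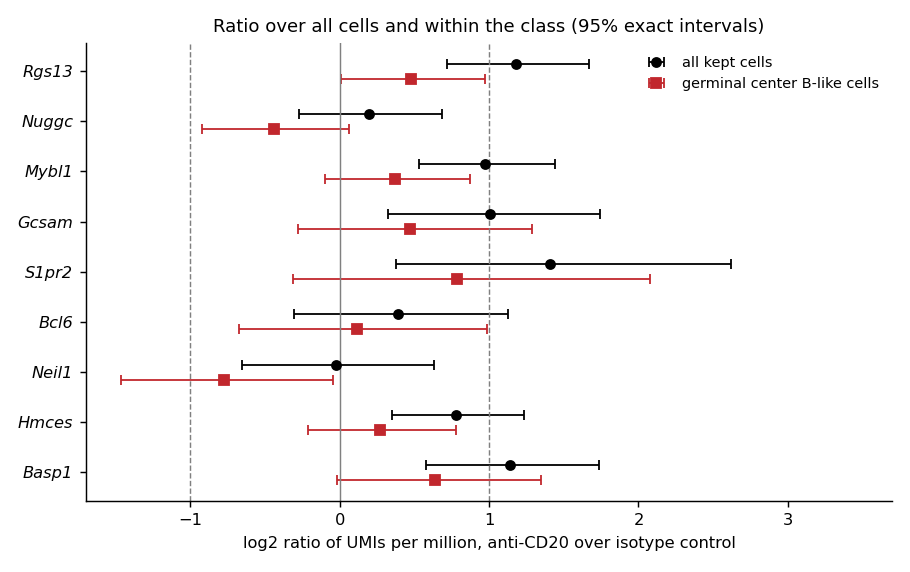
Log2 ratio of anti-CD20 over isotype control for each gene, over all kept cells (black circles) and within germinal center B-like cells (red squares), with 95% exact intervals and dashed lines at a 2-fold difference. Every red square lies to the left of the black circle of the same gene, and Neil1 and Nuggc lie below 0 within the class. For genes almost wholly in the class the shift to the left follows from its larger share of UMIs with anti-CD20.

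Few cells carried much of some counts. One of the 49 cells of the isotype control held 13 of its 45 UMIs of Rgs13. Without the cell with most UMIs of the gene in each library the log2 ratio of Rgs13 within the class was 0.87 (0.33 to 1.46), and that of Neil1 was -0.62 (-1.37 to 0.18), which then included no change. A UMI of Rgs13 was present in 36.7% of those 49 cells (23.4 to 51.7) and in 62.6% of the 123 cells with anti-CD20 (53.4 to 71.2), which were deeper (medians of 1357 and 2094 UMIs). At 400 UMIs a cell, averaged over every possible draw, the shares were 12.4% and 25.5%. Nuggc went the other way, at 44.9% and 44.7% unthinned and 21.8% and 13.6% at 400 UMIs. For Mybl1 these were 20.3% and 22.8%, and for Neil1 11.5% and 5.74%. Both libraries thus had cells with each member, and with 1 library each the differences have no replicate check.

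The members were found together in single cells. Of 118 kept cells with a UMI of at least 3 of the 9 genes, 113 were germinal center B-like, and 153 of the 178 cells of the class had at least 1. In 4 cells all 9 were seen. In the class the median cell had 3 members and 5.5 of their UMIs, with up to 45 in 1 cell, and the summed level was 3509 CPM against 104 CPM in B-like cells. No B-like cell had more than 2 members. The 5 other cells with 3 or more were 2 macrophage/monocyte-like cells with anti-CD20, with 8 and 12 member UMIs, 2 plasma-like cells and 1 cell of the unnamed cluster. Nothing here says whether those droplets held 1 cell, and Scrublet marked 16 of the 1770 barcodes, 3 of them in the class.

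**Figure D5:**
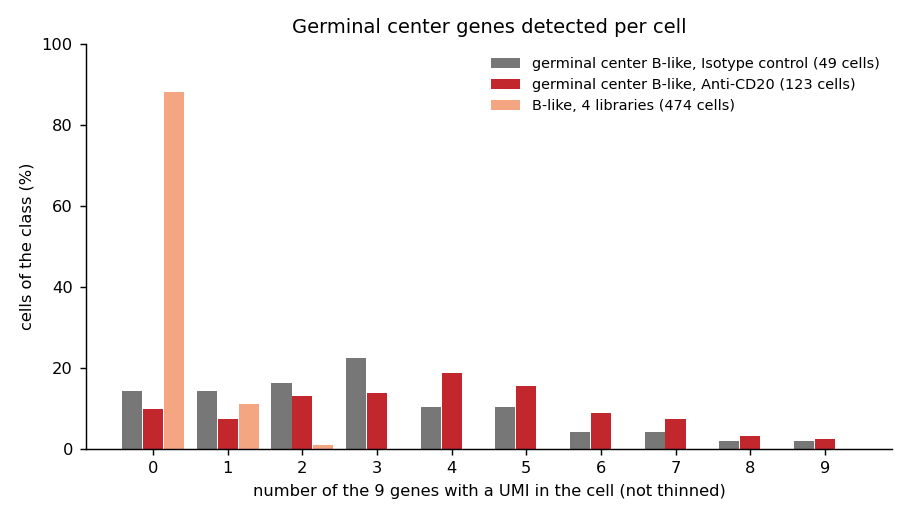
Percent of cells, by the number of the 9 genes with a UMI, for germinal center B-like cells of the isotype control (49) and anti-CD20 (123) libraries and for B-like cells of all 4 (474), at each cell's own depth. B-like cells end at 2 genes, while cells of the class reach all 9.

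Inside the class no member differed with division beyond its interval. Over the 141 cells with at least 800 UMIs, each thinned to that depth, the 36 pairs had correlations of -0.11 to 0.27 with a median of 0.05, which at these counts says little. Cells with 3 or more UMIs of 25 proliferation genes (71 cells, 50.4% of the class, 41.8 to 58.9) were set against the other 70. Rgs13 was at 493 and 679 CPM, Gcsam at 264 and 143 CPM and Bcl6 at 158 and 250 CPM in the first and the second set. The log2 ratios of all 9 lay between -0.66 and 0.89, and each interval included no change. Every interval but that of Mybl1 (-0.52 to 0.87) also included a 2-fold difference, so a lack of difference is not shown. In B-like cells 3.21% passed the same limit of proliferation UMIs (1.55 to 5.82).

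The other genes of the germinal center program were read from 8 lists, compared between the class and B-like cells of the same library. Of the proliferation genes, 21 of the 21 with at least 30 UMIs were higher in the class with anti-CD20, among them Mki67 at a log2 ratio of 3.11 (2.69 to 3.56) and Top2a at 3.45 (2.91 to 4.05), and 8 of 8 in the isotype control. Of the hypermutation and DNA repair genes, 6 of 8 were higher with anti-CD20. Lig1, the ligase of replication and base excision repair, stood at 4.55 (3.30 to 6.19), Pcna, the sliding clamp, at 3.01 (2.34 to 3.75) and Rev1, a translesion polymerase, at 1.45 (0.67 to 2.29). These 3 were also the 3 of 3 that were higher in the isotype control. Apex1 (0.52, -0.44 to 1.53) was not called.

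Of all genes tested, 7.71% were lower in the class than in B-like cells with anti-CD20 and 9.75% in the isotype control. The transcription factors were split. Bach2 (2.57, 1.81 to 3.42), Ezh2, the histone H3 lysine methyltransferase (2.11, 1.56 to 2.71), Pou2af1, a coactivator of octamer factors (1.21, 0.87 to 1.56), and Foxo1 (1.16, 0.18 to 2.24) were higher in the class with anti-CD20. Klf2, which drives S1pr1, was lower (-2.62, -3.77 to -1.61), and the other 8 of 13, Pax5 and Ebf1 among them, were not called. In the isotype control the same 4 were higher and Klf2 was lower, of 12.

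Of the genes of position, 4 of 11 were lower in the class with anti-CD20, among them S1pr1, the receptor that draws cells to exit (-4.34, -6.26 to -2.91), Gpr183, the oxysterol receptor that guides cells to the follicle edge (-3.06, -4.78 to -1.69), and Ccr6 (-5.38, -10.7 to -2.80). Rgs10 (3.29, 1.84 to 5.22), Cxcr4, the dark zone chemokine receptor (1.99, 1.04 to 3.07), Gna13, the G protein subunit that S1pr2 signals through (1.76, 0.84 to 2.80), and Rgs2 (1.54, 0.79 to 2.35) were higher. In the isotype control the same 4 were lower and Rgs2 was higher, of 8. Cxcr5, the follicle homing receptor, was not called in either (-0.17, -0.90 to 0.57 with anti-CD20).

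No gene of the light zone and T cell contact list was higher. Bcl2 (-4.08, -6.42 to -2.43), Cd38 (-1.68, -2.51 to -0.90), Cd40 (-1.52, -2.51 to -0.60) and Cd52 (-1.08, -1.23 to -0.93) were lower of 8 with anti-CD20, and Bcl2 and Nfkbia of 7 in the isotype control. Between the 2 libraries, within the class, Cd83 (-1.05, -1.73 to -0.36) and Cd86 (-1.33, -2.40 to -0.22), surface proteins of light zone cells, were lower with anti-CD20, 2 of the 6 genes of this list with enough UMIs. Gna13 (1.37, 0.15 to 2.88), Top2a (1.07, 0.67 to 1.49) and Iglv2 (1.69, 0.02 to 4.04, from 3 UMIs in the isotype control) were the listed genes that were higher. No gene of the T follicular helper list had 30 UMIs in these cells.

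Of the immunoglobulin genes, Igj, the joining chain of secreted antibody (1.43, 1.0 to 1.89), Iglv1 (1.59, 1.09 to 2.12) and Iglv2 (4.66, 2.08 to 10.01, from 1 UMI in B-like cells) were higher and Ighg2b was lower in the class with anti-CD20, of 8. In the isotype control Igj was higher, and Iglv2, Iglc2 and Ighg2b were lower, of 7, so Iglv2 was higher in 1 library and lower in the other. Ighm stood at 3884 CPM in the class of the isotype control and 3565 CPM with anti-CD20, and Ighg1 at 23.1 and 23.7 CPM, from 2 and 7 UMIs. Among relatives of the members, Marcksl1 was higher (2.11, 1.01 to 3.40) and Marcks, a membrane protein of the same general type as Basp1, was lower (-2.37, -3.17 to -1.62), the only 2 with enough UMIs. The same 2 were called in the same directions in the isotype control.

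The genes most like the summed members across 20 class-by-library sums of at least 20 cells, by Pearson correlation of log2(CPM + 10), included Endou (r = 0.88), Havcr1 (0.84), H2-Eb2 (0.84) and Efnb1 (0.83), followed by Rassf6, Tmem121, Smagp, Prkd3 and Scimp at 0.79 to 0.80. The points share libraries and differ in depth, and most sit near 0, so these are descriptions. Among the members, Rgs13 and Nuggc were closest (r = 0.99). Rgs13 and Mybl1 (0.90), Nuggc and Mybl1 (0.88), Gcsam and Basp1 (0.88), Bcl6 and Basp1 (0.87), Mybl1 and Neil1 (0.87) and Nuggc and Hmces (0.87) followed, while Bcl6 and Hmces (0.36) and Hmces and Basp1 (0.36) were farthest apart. Of single members, Rgs13 was most like Havcr1 (0.98) and then Endou, and Nuggc most like Rassf6 (0.97) and then Havcr1. Endou and Havcr1 were among the nearest to Mybl1 (0.89 and 0.87). Gcsam was nearest to Efnb1 (0.87) and then Endou, and S1pr2 to Endou (0.88), with Sh2b2 also near (0.80). The repair genes had other neighbours, Helq (0.85), Ada and Klhl6 for Neil1 and H1fx (0.85) and Eaf2 for Hmces. Apobec1, an RNA-editing deaminase, was the gene most like Bcl6 (0.90), with 43.8% of its UMIs in the class, ahead of Mtm1 and 5031439G07Rik. Basp1 was most like Rgs2 (0.81), Apobec1 and Mtpn, of which Rgs2 had 12.6% of its UMIs in the class.

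Ranked over all genes with at least 30 UMIs in the class, by the smaller of the log2 ratios of (CPM + 10) over B-like cells in the isotype control and anti-CD20 libraries, 5 of the first 10 genes were members: Rgs13, Gcsam, Basp1, Mybl1 and Nuggc. As the members were chosen on these data, this is a description. Among the others were Kif11, a mitotic kinesin, with 23 UMIs in the class and 1 in B-like cells of the isotype control and 54 and 0 with anti-CD20, Lig1 (35 and 5, then 153 and 5), Ada, adenosine deaminase (24 and 2, then 85 and 4), and Rassf6 (18 and 2, then 72 and 2). Each of the 10 had at most 5 UMIs in the B-like cells of either library.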

How the data were processed

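Drop-seq libraries of spleen cells, 1 per treatment, gave the data. Per the methods, the authors discarded reads with poor barcodes, clipped adapters and polyA tails, used STAR (2.5.0a in the submitters' processing notes) with mm10 as the genome, and tallied UMIs by Dropseq-tools for 799 or 800 barcodes a library. The authors deposited these UMI counts without scaling. The columns named PBS were used as the isotype control, the only control among the labels. The number of mice per library is not given in the sources used here.

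The 9 genes, the gene lists and the naming markers were chosen with earlier results of these data known. Barcodes with 300 to 3000 genes were kept, as in the methods, which left 1770 of 3198. Counts were scaled to 10000 per cell and logged, and the 2000 most variable genes without the members and listed genes, 30 components, 15 nearest neighbours and the Leiden method (leidenalg 0.10.2, resolution 1) gave 11 clusters. A cluster took the name with most markers, at least 3, among its top 30 genes by fold. The rebuilt names need not match the study's. Doublets were not removed. UMIs were summed per class or library and given as CPM with exact Poisson intervals, ratios with exact conditional intervals and shares with exact binomial ones. No test between treatments was possible. A count of 0 was given a floor of 3 counts. Genes were named by rule: the members, the genes of the 8 lists, with those of most UMIs quoted, the genes most like the members, and the 10 highest in the class over B-like cells in both libraries. Leading genes of clusters, genes called within lists, restricted genes that are no member and Marcks were quoted after their values were seen. A few genes that these rules name are not reported here. Ratios were tested on simulated counts.

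Alternatives were other gene limits, Leiden resolutions of 0.5 and 2, fewer variable genes, members allowed among them or among the naming markers, classes from each cell's own markers, doublets called with Scrublet (scanpy 1.11.5), TMM scaling (edgeR 4.0.16), means over cells, a pseudocount of 10 CPM, no filter on counts, thinning to 800 UMIs or none, limits of 60% and 90%, and the class without the cell with most UMIs of the member in each library. Further runs, chosen after seeing the data, left out barcodes that end in N and kept 1 barcode of those 1 base apart. Scripts ran in Python 3.11.15 (scipy 1.17.1, numpy 2.4.6) and R 4.3.3.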

Additional observations from a re-analysis of the deposited data

Results flagged for a closer look

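Barcodes with over 3000 detected genes are outside the limits and enter no comparison. In the anti-CD20 library 4 of 5 such barcodes held 99 UMIs of the 9 genes, a summed level of 1410 CPM, above the 62.4 CPM of the 2 such barcodes of the isotype control. Barcodes under 300 genes held 31 member UMIs in the isotype control (208 CPM) and 36 with anti-CD20 (144 CPM), 6 with anti-CD27 (41.1 CPM) and 14 in the combination (73.1 CPM).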

How the results depend on the processing

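No paired analysis was possible because each treatment is 1 library. No ratio whose interval excluded no change turned direction under any alternative. For the other ratios a change of sign was not looked for. The 4 restricted members became 2 (Rgs13 and Nuggc) when cells were classed singly by their markers, 2 at a limit of 90% and 7 at 60%. Without the 273 barcodes ending in N they were 3, as Gcsam was at 76.4%, with 29 and 85 germinal center B-like cells left in the isotype control and anti-CD20 libraries. The share of all members' UMIs in the class, 79.6%, was 76.4% without those barcodes and 71.4% with cells classed singly, and 78.3% to 80.5% otherwise. Members higher with anti-CD20 than in the isotype control numbered 3 to 6 over the alternatives, and Gcsam, at the limit, was not called with a higher gene minimum, without Scrublet's calls, without barcodes 1 base apart or with the pseudocount (log2 ratios of 0.82, 0.99, 0.97 and 0.88). Lower members numbered 5 to 9 with anti-CD27 and 9 in every run for the combination. Within the class 1 member, Rgs13, was higher by the mean over cells (log2 ratio 1.05) and none otherwise. Germinal center B-like cells with anti-CD27 numbered 1 to 11 and in the combination 0 to 3. Of the further values of single genes and cell numbers, 50 moved and 561 did not. Values of genes were judged by their interval and cell numbers, which have none, by a limit on the fold. With 1 library each, mice, days and treatments cannot be told apart.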
